A study of Mus musculus with 17 samples.

Results

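*Foxj1*, the RFX factors *Rfx2*, *Rfx3* and *Rfx4*, and the motile cilia genes *Dynlrb2*, *Rsph1*, *Tekt1*, *Ccdc153* and *Tmem212* are described together. These 9 genes were taken by symbol from the 56691 gene rows of the deposited counts and followed across all 17 libraries. Each symbol matched 1 row. The genes were selected on measured values of these same libraries, and since which comparison was used is not recorded, every comparison is treated as used. Their levels and differences are therefore a description. Where fits over all genes are counted for them, the share of all genes stands beside the count, and nothing is concluded from it about the 9 genes.

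A motile cilium is a beating axoneme of microtubule doublets carrying dynein arms, radial spokes and a central pair, and the brain's ventricles are lined by ependymal cells that bear many of them. FOXJ1 is the forkhead transcription factor that switches on the genes of this axoneme, and RFX factors bind a palindromic DNA element called the X-box in promoters of genes of both motile and primary cilia. Astrocytes normally carry a single immotile primary cilium, which needs RFX factors but none of the dynein arms or radial spokes.

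The libraries are bulk 3ʹ mRNA sequencing of cultured astrocytes, purified by immunopanning from the brains of newborn C57BL/6 mice with no engineered allele named. Panning removed CD45+ microglia and macrophages and O4+ cells of the oligodendrocyte lineage and kept HepaCAM+ cells. In the first experiment, the Smoothened agonist SAG at 500 ng ml−1 (n = 3) or its vehicle DMSO (n = 3) was added on day 3 in vitro for 3 d, to activate Sonic hedgehog signalling. In the second, FGF2 at 50 ng ml−1 (n = 4), FGF10 at 50 ng ml−1 (n = 3) or the vehicle PBS (n = 4) was added on day 2 in vitro for 7 d. The labels name no separate animals or cultures behind the replicate numbers, so every error below measures the spread between these libraries, which may in part be technical. The cultures lack the ventricular wall, so they limit what can be read about ependymal cells in tissue.

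Library totals ran from 17481727 to 68342287 counts with a median of 37173676, and levels are given as CPM, counts scaled to library size with TMM factors over the 17 libraries. All counts come from the 3ʹ end of the transcript and do not grow with its length. Among genes that averaged 5 to 20 CPM elsewhere, 3.96% to 22.1% had no read in a given library, against 0% to 1.14% at 20 to 100 CPM and 0% at 100 to 500 CPM. *Ccdc153*, *Tekt1* and *Tmem212* averaged 4.33, 2.99 and 0.459 CPM over the 17 libraries, below the ranges examined. *Rsph1* averaged 14.5 CPM over the 17 libraries, inside the lowest range. Its mean was 25.8 CPM with DMSO and 23.7 CPM in replicates 1 and 2 of the second experiment, where zeros were rarer among all genes. Precision for these genes is poor. Reads are not independent molecules, so no counting interval is given. The astrocyte channel gene *Aqp4* was at 38.7 to 192 CPM, and the microglial genes *Csf1r* and *Aif1* were at 0 in all 17 libraries.

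The promoters are shown because the RFX factors and several axonemal genes are described together. RefSeq entries on GRCm38.p6 were matched by symbol for 7 of the 9 genes, in 9 entries, and promoters of *Foxj1* and *Rsph1* are not shown. The 250 bases before each start were searched on both strands for an X-box (GTNNCC, a gap of 0 to 3 bases, then NGNAAC), for its single arm GTTGCC, which can overlap it, and for the forkhead letters TGTTTAC. The motifs were written with these promoters in view, and a match is a description of letters, not a bound site. In the sequences that follow, read 5ʹ to 3ʹ on the strand of the gene, capitals mark the matched letters. The window of *Dynlrb2* is shown up to 20 bases past its annotated start, and of the upstream *Tekt1* entry only 26 bases are shown.

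Ccdc153, chr9:44240427-44240676, plus strand: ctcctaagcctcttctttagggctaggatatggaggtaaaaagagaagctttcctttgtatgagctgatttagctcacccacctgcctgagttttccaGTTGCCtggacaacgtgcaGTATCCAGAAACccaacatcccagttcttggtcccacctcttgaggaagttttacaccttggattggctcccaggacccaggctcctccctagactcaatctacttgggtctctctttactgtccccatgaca
Dynlrb2, chr8:116504765-116504993, plus strand: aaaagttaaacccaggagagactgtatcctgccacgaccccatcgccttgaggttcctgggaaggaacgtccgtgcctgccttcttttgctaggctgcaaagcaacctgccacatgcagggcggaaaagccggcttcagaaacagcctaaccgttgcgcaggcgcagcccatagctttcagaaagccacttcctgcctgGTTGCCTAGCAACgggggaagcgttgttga
Rfx2, chr17:56831009-56831258, minus strand: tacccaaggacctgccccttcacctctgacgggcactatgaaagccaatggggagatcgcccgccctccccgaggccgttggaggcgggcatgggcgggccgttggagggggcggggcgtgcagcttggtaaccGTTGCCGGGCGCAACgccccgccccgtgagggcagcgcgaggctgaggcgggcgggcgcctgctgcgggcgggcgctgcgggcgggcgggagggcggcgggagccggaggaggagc
Tekt1, chr11:72361892-72361917, minus strand: GGCAACgttgcgtccgtccgGTTGCC

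*Dynlrb2* held a complete X-box starting at −51 relative to its RefSeq start, with a gap of 1 base between its arms, and *Rfx2* held one starting at −116, with a gap of 3 bases. *Ccdc153* held a single arm at −152 and a separate match to the full motif, without a gap, at −133. The upstream entry of *Tekt1* held a single arm in each orientation. *Tmem212*, *Rfx3*, *Rfx4* and the downstream entry of *Tekt1* held none of the 3 motifs in this window. The X-box was thus in 3 of 9 entries of these genes (33.3%), in 20 of 81 entries (24.7%) of other genes of the motile axoneme described further on, and in 1453 of 32851 promoters (4.42%) overall. The single arm was in 4 of 9 (44.4%), 29 of 81 (35.8%) and 10.4% of all promoters. The forkhead letters were in 0 of 9, 6 of 81 (7.41%) and 3.17%.

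*Foxj1* (chr11:116330704-116335399, GRCm38) was the most abundant of the 9 genes and ranked 599th by mean CPM among 22606 genes with a count. It was at 233, 184 and 143 CPM with DMSO and at 69.4, 139 and 125 CPM with SAG. With PBS it was at 323, 323, 168 and 204 CPM in replicates 1 to 4. FGF2 libraries had 304, 301, 115 and 78.6 CPM, and FGF10 libraries had 446, 307 and 137 CPM. Every SAG library was below every DMSO library, narrowly, and in the FGF experiment replicates 1 and 2 were high and replicates 3 and 4 low whatever the ligand. By group mean the order was FGF10, PBS, FGF2, DMSO and SAG, and only the last neighbours in that order did not overlap.

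The RFX factors were detected in every library. *Rfx4* (chr10:84756062-84906538), an RFX factor of the neural lineage, was at 79.5 ± 28.1 CPM and *Rfx3* (chr19:27761721-28011166), required for ciliogenesis, at 65.3 ± 25.8 CPM (SD, n = 17 each). *Rfx2* (chr17:56775897-56831013), known from multiciliated cells and spermatids, was at 15.3 ± 9.35 CPM (SD, n = 17). *Rfx3* and *Rfx4* had the smallest relative spread of the 9 genes, with coefficients of variation of 39.5% and 35.4%, and *Rfx2* had 61.1%. Neighbouring groups overlapped in the order of means for each of these 3 factors. The order ran from FGF2 down to SAG for *Rfx3*, from FGF10 down to SAG for *Rfx2*, and from SAG down to DMSO for *Rfx4*. An antisense pseudogene within *Rfx3*, *Gm8412*, had 1278 counts against 43879 for *Rfx3*, and whether counting used the strand is not given in the sources used here.

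The genes other than *Foxj1* and the RFX factors varied more, with coefficients of variation from 80.1% for *Dynlrb2* to 294% for *Tmem212*. *Dynlrb2* (chr8:116504974-116515915), a light chain of dynein motors, was detected in all 17 libraries. It was at 28.9, 30.1 and 57.3 CPM with DMSO and at 15.8, 8.62 and 12.2 CPM with SAG. PBS libraries had 85.9, 81.7, 37.2 and 8.42 CPM, FGF2 libraries 91.2, 37.6, 11.1 and 4.33 CPM, and FGF10 libraries 103, 42.3 and 27.9 CPM. The SAG libraries were all below the DMSO libraries, and in each group of the FGF experiment the value was highest in replicate 1.

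*Rsph1* (chr17:31255019-31277383), a protein of the radial spoke head, had no read in 6 of 17 libraries. It was at 18.0, 18.5 and 40.9 CPM with DMSO and at 22.7, 0 and 0 CPM with SAG. PBS libraries had 21.9, 13.8, 4.37 and 0 CPM, FGF2 libraries 17.5, 7.42, 0 and 0 CPM, and FGF10 libraries 52.3, 29.5 and 0 CPM. The SAG and DMSO groups overlapped through SAG replicate 1, and of the 11 libraries of the FGF experiment the 6 highest were those of replicates 1 and 2. The annotation places the antisense gene *AC154652.1* over *Rsph1*. It is not analysed here.

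*Ccdc153* (chr9:44240676-44247306), a coiled-coil protein widely used as an ependymal marker, had no read in 7 libraries. It was at 14.8, 4.74 and 3.56 CPM with DMSO and had 0 counts in each of the 3 SAG libraries. The DMSO mean was 102-fold above the level of 3 counts per SAG library, and 54.8-fold without DMSO replicate 1. PBS libraries had 4.82, 12.9, 5.27 and 0 CPM, FGF2 libraries 5.17, 0, 0 and 0 CPM, and FGF10 libraries 15.5, 6.30 and 0.522 CPM. The ratios to 3 counts depend on the floor chosen and do not bound the difference. Reads are not independent molecules, and zeros are common at this level, also within PBS and within FGF2.

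*Tekt1* (chr11:72344722-72362442), a filament protein of the doublet microtubules, was at 0 to 9.22 CPM with 7 libraries at 0. *Tmem212* (chr3:27866066-27896368), a membrane protein also used as an ependymal marker, was close to absent. It had 193 counts in all, of which 96 were in FGF2 replicate 2 and 59 in DMSO replicate 3, and 10 libraries had none. It passed the filter on low counts in none of the 6 comparisons and is left out of the counts that follow. The other 8 genes passed it in all 6. The plot of levels by library shows the 9 genes in full.

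**Figure D1:**
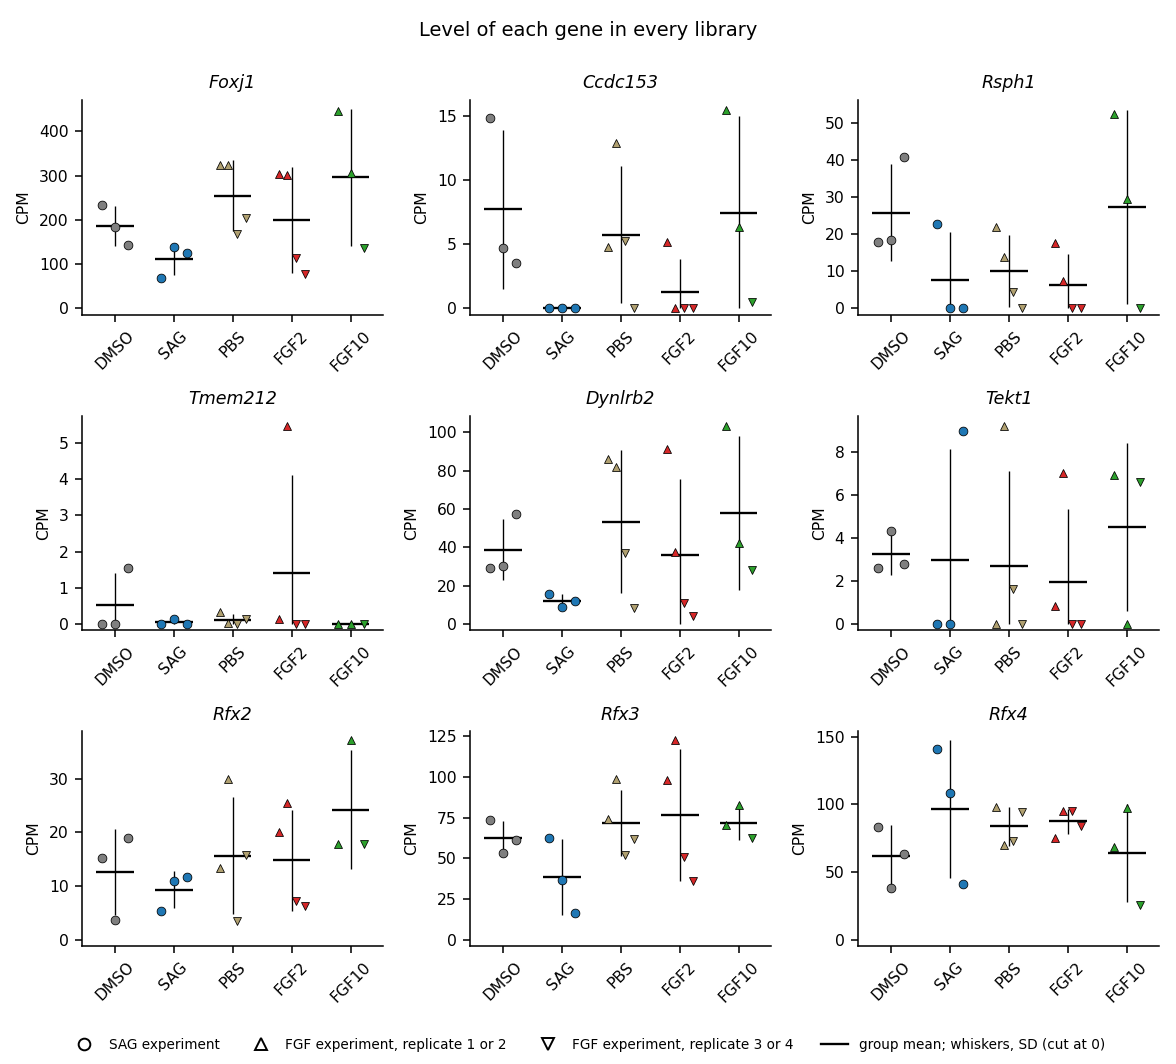
CPM of each of the 9 genes (vertical axes, each from 0) in every library by group, with group means and SD. Circles are the DMSO and SAG libraries, upward triangles replicates 1 and 2 and downward triangles replicates 3 and 4 of the FGF experiment. *Foxj1* is at 301 CPM or more in upward triangles and at 204 CPM or less in downward ones, and *Ccdc153* is at 0 in all SAG libraries.

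With SAG, 7 of the 8 genes were fitted lower than with DMSO and *Rfx4* higher, and edgeR's test called 0 of the 8 at an adjusted p of 0.05, where it called 0.0638% of 12538 genes. At an unadjusted p under 0.05, 3 of the 8 were lower, against 3.06% of all genes, and DESeq2's Wald test called 1, *Ccdc153*, where it called 2.93% of all genes. The groups did not overlap for 3 genes, *Foxj1*, *Dynlrb2* and *Ccdc153*, all lower with SAG, against 8.18% of all genes lower in this way. For *Foxj1*, with group means of 186 ± 45.2 CPM under DMSO and 111 ± 36.8 CPM under SAG (SD, n = 3 each), the log2(fold-change) was −0.72 ± 0.30 (± here and after fold-changes is the standard error). *Dynlrb2* had −1.65 ± 0.68, from 38.8 ± 16.0 to 12.2 ± 3.58 CPM (SD, n = 3 each).

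The SAG and DMSO values of the RFX factors overlapped. *Rfx3* had a log2(fold-change) of −0.69 ± 0.50, *Rfx4* 0.67 ± 0.45 and *Rfx2* −0.41 ± 1.33. *Rsph1* had −1.75 ± 2.04 and *Tekt1* −0.09 ± 2.97, and their values overlapped too. Leaving out 1 library at a time kept the sign for *Foxj1*, *Dynlrb2*, *Ccdc153*, *Rsph1*, *Rfx3* and *Rfx4*, but not for *Tekt1* and *Rfx2*. *Foxj1* then ran from −0.91 to −0.47 and *Dynlrb2* from −1.88 to −1.26. In these bulk libraries, fewer cells carrying a transcript and less of it per cell cannot be told apart.

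Marker lists of other cells were read beside these values. The summed level of 7 markers of the oligodendrocyte lineage, 6 or 7 of them with a count in each library, was 1969 to 2394 CPM with DMSO and 3682 to 3837 CPM with SAG, and *Olig1* of this list passed the threshold, higher with SAG (log2(fold-change) 1.29 ± 0.14, edgeR adjusted p = 0.0042). *Olig1* and *Olig2* made up most of this sum, and by gene the list was mixed, with 3 means higher and 4 lower with SAG, *Sox10* among them, and a median log2(fold-change) of −0.29. The sum of 10 astrocyte markers overlapped, at 4152 to 4508 CPM under DMSO and 3653 to 4290 CPM with SAG, but single markers did not. Of the 10, 1 was higher and 3 were lower without overlap, against 8.18% of all genes lower in this way. By edgeR 0 were called, with 4 at an unadjusted p under 0.05, and by DESeq2 3, against 5.69% and 2.93% of all genes. *Gfap*, an intermediate filament of astrocytes, was at 140 to 199 CPM with DMSO and at 25.3 to 59.9 CPM with SAG. The sum of 8 ependymal markers outside the cilium, most of it *Nnat*, also overlapped, at 3006 to 4585 CPM with DMSO and 4316 to 5433 CPM with SAG, with 4 means higher and 4 lower. The sum of 6 endothelial and mural markers was 23.6 to 28.1 CPM with DMSO and at most 18.2 CPM with SAG, without overlap, with 3 means higher and 1 lower. The part of these shifts in the levels of *Foxj1* and *Dynlrb2* was not tested.

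With FGF2 against PBS, 2 of the 8 genes were fitted higher and 6 lower, and 0 were called by edgeR, 0 had an unadjusted p under 0.05 and 0 were called by DESeq2. The threshold was passed by 0% of all 12744 genes in edgeR, with 223 at an unadjusted p under 0.05, and by 9 (0.0706%) in DESeq2. *Foxj1* had a log2(fold-change) of −0.35 ± 0.40, *Dynlrb2* −0.56 ± 0.81, *Rfx3* 0.10 ± 0.38 and *Rfx4* 0.06 ± 0.24. Within replicates 1 and 2 *Foxj1* had −0.09 ± 0.19, and within replicates 3 and 4 it had −0.96 ± 0.29. The difference between these values was not tested. With the replicate number as a block, *Foxj1* had −0.53 ± 0.22 and *Dynlrb2* −0.94 ± 0.40, and these 2 of the 8 genes had an unadjusted p under 0.05, against 3.01% of all genes, with 0 called.

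With FGF10 against PBS, 7 of the 8 genes were fitted higher, all but *Rfx4*, though only 3 of 8 with the replicate number as a block, and again 0 were called by edgeR or DESeq2 and 0 had an unadjusted p under 0.05. The share of all 13309 genes called was 0% in edgeR, with 305 at an unadjusted p under 0.05, and DESeq2 called 37 (0.278%). *Foxj1* had a log2(fold-change) of 0.22 ± 0.35, and 0.22 ± 0.23 within replicates 1 and 2, and *Rsph1* had 1.46 ± 1.68. Of the 3 FGF10 libraries 2 are replicates 1 and 2, against 2 of 4 PBS libraries. With the replicate set (1 and 2, or 3 and 4) as a term, *Foxj1* had −0.03 ± 0.20, *Rsph1* −0.31 ± 2.05 and *Ccdc153* −0.59 ± 2.29, and the sign of each turned. *Dynlrb2* and *Tekt1* turned in 2 and 1 of 8 other settings, and *Rfx3*, at 0.005 here, in all 8, where it ran from −0.18 to −0.002.

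FGF2 against FGF10 gave 2 genes fitted higher and 6 lower with FGF2, and PBS against DMSO gave 5 higher and 3 lower with PBS. In both, 0 of the 8 were called by edgeR or DESeq2 and 0 had an unadjusted p under 0.05. The share of all genes called by edgeR was 0% of 13493 and 0% of 13271, with 324 and 580 at an unadjusted p under 0.05, and DESeq2 called 28 (0.208%) and 126 (0.949%). *Foxj1* had a log2(fold-change) of −0.57 ± 0.48 in the first and 0.47 ± 0.27 in the second. Vehicle, day in vitro and experiment differ together between PBS and DMSO and cannot be told apart. The 3 FGF comparisons share libraries with each other, and the comparisons of SAG and of PBS share the DMSO libraries.

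Libraries of the FGF experiment also differed by replicate number. No label calls the numbers a batch, and replicates 3 and 4 (n = 5) were compared with replicates 1 and 2 (n = 6) with the treatment as a covariate. All 8 genes were fitted lower in replicates 3 and 4. edgeR called 3 of them, *Foxj1*, *Dynlrb2* and *Rsph1*, against 4.38% of 12957 genes in either direction and 1.80% lower. DESeq2 called 4, with *Rfx3* added, against 12.2% of all genes in either direction and 7.10% lower. Values did not overlap for the same 4 genes, against 2.58% of all genes lower in this way.

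*Foxj1* ranged from 301 to 446 CPM, with a median of 315, in replicates 1 and 2 and from 78.6 to 204 CPM, with a median of 137, in replicates 3 and 4. The log2(fold-change) of −1.27 ± 0.18 ran from −1.39 to −1.16 when any 1 library was left out. *Dynlrb2* ranged from 37.6 to 103 CPM, with a median of 83.8, against 4.33 to 37.2 CPM, with a median of 11.1, and had a log2(fold-change) of −2.16 ± 0.46. The *Dynlrb2* ranges nearly touched. *Rsph1* ranged from 7.42 to 52.3 CPM, with a median of 19.7, and in replicates 3 and 4 it was at 0 in 4 of 5 libraries and at 4.37 CPM in the other.

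*Rfx3* ranged from 70.1 to 123 CPM, with a median of 90.3, against 35.7 to 62.3 CPM, with a median of 51.8, for a log2(fold-change) of −0.79 ± 0.24. *Rfx2* had −1.23 ± 0.62 and *Rfx4* −0.33 ± 0.28, and their ranges overlapped. *Rfx4* kept closest to 1 level, at medians of 85.0 and 84.0 CPM. *Ccdc153* was at 0 in 1 of 6 and in 3 of 5 libraries, and *Tekt1* in 2 of 6 and 3 of 5. The plot of fitted differences sets these beside the 5 treatment and vehicle comparisons.

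Within PBS alone the log2(fold-change) of *Foxj1* was −0.77 ± 0.21 and within FGF2 alone −1.65 ± 0.27, with 2 libraries against 2 in each. *Dynlrb2* had −1.86 ± 0.69 and −3.06 ± 0.73, and *Rfx3* −0.59 ± 0.36 and −1.36 ± 0.34. edgeR called 0 of 8 genes within PBS and 0 of 7 tested within FGF2, where it called 0.0837% and 0.178% of all genes. At an unadjusted p under 0.05, 2 and 5 of them were lower, against 3.64% and 6.25% of all genes. The call of *Rsph1*, whose fitted value rests on libraries at 0, was kept in 3 of the 11 fits that left out 1 library. It was lost without PBS replicate 4, without any FGF2 library and without any FGF10 library. The calls of *Foxj1* and *Dynlrb2* were kept in all 11.

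**Figure D2:**
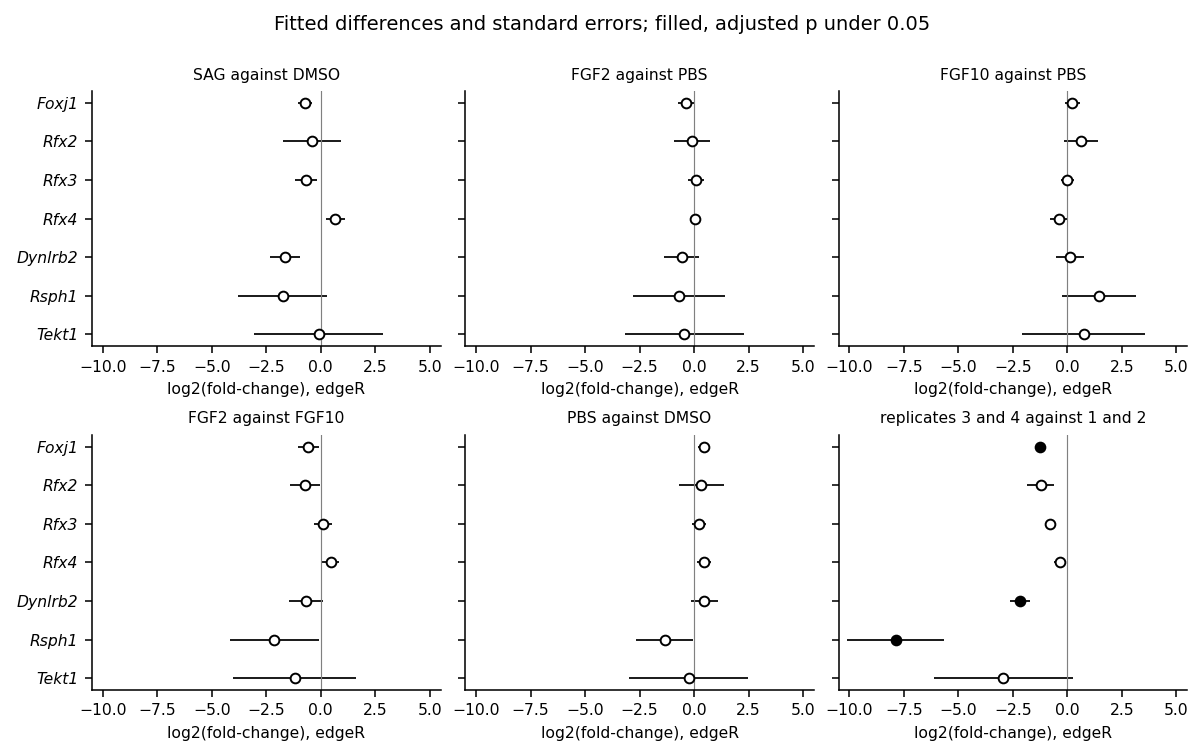
The log2(fold-change) from edgeR (horizontal axes) with standard errors as bars for 7 of the genes in the 6 comparisons, filled where the adjusted p was under 0.05. *Ccdc153*, at 0 in all SAG libraries, and *Tmem212*, not tested, are left out. Filled points appear in the panel of replicate numbers only, for *Foxj1* at −1.27, *Dynlrb2* at −2.16 and *Rsph1* at −7.89.

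The marker sums were read between the replicate numbers as well. The oligodendrocyte lineage sum was 1800 to 2057 CPM in replicates 1 and 2 and 3277 to 4256 CPM in replicates 3 and 4. By gene this list was mixed again, with 3 means higher and 4 lower in replicates 3 and 4, and edgeR called 2 higher, *Olig1* and *Olig2*, and 1 lower. The astrocyte sum was 4628 to 5456 CPM against 3429 to 3891 CPM, with 4 of 10 markers called lower and 1 higher. Of all genes, edgeR called 1.80% lower and 4.38% in either direction. The sum of 6 neuronal markers was 92.9 to 153 CPM against 25.5 to 57.4 CPM. The sum of 6 endothelial and mural markers was 18.3 to 74.4 CPM against 0 to 17.9 CPM. By gene, 1 mean of this list was higher and 4 were lower in replicates 3 and 4. Of its 2 tested markers edgeR called 1 lower, and *Pdgfrb* had means of 32.8 and 2.24 CPM. The ependymal sum without cilium genes overlapped, at 5328 to 6289 CPM and 3049 to 7232 CPM, and was mostly *Nnat*. All 8 of its markers had a lower mean in replicates 3 and 4, and the 7 tested were fitted lower, with a median log2(fold-change) of −0.75. Of these, 1 was called, *Acta2*, smooth muscle actin, which fell from 233 ± 58.0 CPM (SD, n = 6) to 64.4 ± 16.3 CPM (SD, n = 5; edgeR adjusted p = 4.65e-06). Microglial and fibroblast sums were at most 4.36 and 19.5 CPM. The choroid plexus sum overlapped, at 42.4 to 73.9 CPM and 37.9 to 66.7 CPM, and by gene this list was mixed. *Ttr*, *Aqp1*, *Kcnj13* and *Kl* were each at 0 in 16 of 17 libraries, and *Clic6* in 15. *Otx2* was at 29.1 to 66.7 CPM over all libraries, and *Folr1* was at 0 in 4 and reached 31.3 CPM. The part of these shifts in the levels of the 8 genes was not tested.

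Other genes of motile cilia and other RFX factors were read from 8 lists of 120 symbols. Of these symbols, 117 matched a row and 112 had a count. Among the factors that start multiciliated differentiation, *Gmnc*, *Mcidas* and *Trp73* had no read in 9, 12 and 14 of 17 libraries and means of 1.73, 1.04 and 0.219 CPM. *Ccno*, which acts in centriole amplification, was at 4.60 CPM and *Myb* at 6.89 CPM. *E2f5* and *E2f4*, partners of the multiciliated regulators and also factors of the cell cycle, were at 37.3 and 18.8 CPM. *Foxj1*, at 212 ± 106 CPM (SD, n = 17), had a higher mean than each of these regulators.

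Of the other RFX factors, *Rfx7*, *Rfx1* and *Rfx5* were at 35.9, 27.0 and 13.9 CPM, between *Rfx3* and *Rfx2* or just under *Rfx2*. *Rfx6* was at 0 throughout and *Rfx8* in 16 of 17 libraries. Of these 5 factors, 3 were tested in each comparison and 0 were called by edgeR or DESeq2. Between PBS and DMSO 1 had an unadjusted p under 0.05 in edgeR, where 4.37% of all genes had one. *Rfx5* had a mean of 24.2 CPM under SAG beside 6.47 CPM under DMSO and was not called.

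The structural lists cover dynein arms, their assembly factors, radial spokes with the central pair and nexin links, tektins and doublet proteins, and other genes of multiciliated cells, 93 matched rows in all without the 9 genes above. Their summed level was 1151 to 1472 CPM in replicates 1 and 2 and 390 to 578 CPM in replicates 3 and 4. It was 838 to 916 CPM with DMSO and 635 to 708 CPM with SAG, again without overlap. Both groups of the SAG experiment thus lay between the ranges of the replicate sets of the FGF experiment. In this sum, genes with high levels weigh most. By list, DMSO and SAG did not overlap for tektins and doublet proteins (257 to 328 against 128 to 224 CPM). Dynein arms and docking did not overlap either (161 to 170 against 124 to 141 CPM). Overlap was seen for radial spokes and links (182 to 201 against 111 to 211 CPM) and dynein arm assembly (81.3 to 104 against 71.6 to 127 CPM). Other genes of multiciliated cells also overlapped (124 to 170 against 72.6 to 134 CPM).

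Between replicate numbers, 81 of the 89 structural genes with a count had a lower mean in replicates 3 and 4, against 49.5% of all 22606 genes. The 65 that passed the filter had a median log2(fold-change) of −2.14, with 3 higher and 62 lower, where the median of all genes was −0.02. The filter also admits genes through their high group, so the median is a description. Over all 8 lists, 8 of 82 tested genes were called lower and 0 higher by edgeR, and DESeq2 called 29. Of all genes, 1.80% were called lower by edgeR and 7.10% by DESeq2. Leaving out 1 library gave 1 to 7 called lower, with the fewest, 1, without FGF2 replicate 3 and 2 without FGF2 replicate 1 or FGF10 replicate 3. It was also 5 without FGF2 replicate 4, 4 without PBS replicate 2, FGF2 replicate 2 or FGF10 replicate 2, and 3 without FGF10 replicate 1.

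The 8 genes were *Enkur*, *Meig1*, *Cfap44*, *Tppp3*, *Dnai1*, *Dnai3*, *Odf3b* and *Deup1*. With 1 library left out at a time *Enkur* kept its call in all 11 fits, *Cfap44* in 10, *Tppp3* in 6, *Dnai3* in 5, *Dnai1* in 2 and *Deup1*, *Meig1* and *Odf3b* in 1 each, counting as lost the fits in which a gene failed the filter. *Enkur*, a protein inside the doublet microtubules, fell from 131 ± 53.7 CPM (SD, n = 6) to 18.9 ± 10.2 CPM (SD, n = 5), a log2(fold-change) of −2.88 ± 0.41 (edgeR adjusted p = 0.000287). *Meig1*, another doublet protein needed in spermatids, fell from 50.3 ± 15.3 to 6.99 ± 4.36 CPM (log2(fold-change) −2.93 ± 0.81, edgeR adjusted p = 0.0455). *Dnai1* and *Dnai3*, intermediate chains of axonemal dyneins, were at 2.84 to 15.4 CPM and 4.62 to 21.6 CPM in replicates 1 and 2. In replicates 3 and 4 *Dnai1* was at 0 in all 5 libraries and *Dnai3* in 4. *Deup1*, which builds the deuterosomes that multiply centrioles, was at 0 in 1 of 6 and in 3 of 5 libraries. *Cfap44*, an axonemal protein, and *Odf3b*, an outer dense fibre protein, were at 0 in 4 and in 5 of the 5 libraries of replicates 3 and 4. *Tppp3*, a tubulin-binding protein, fell from 88.5 ± 48.8 to 27.4 ± 9.52 CPM (edgeR adjusted p = 0.0258), with 1 library of replicates 1 and 2, at 29.9 CPM, inside the range of replicates 3 and 4.

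**Figure D3:**
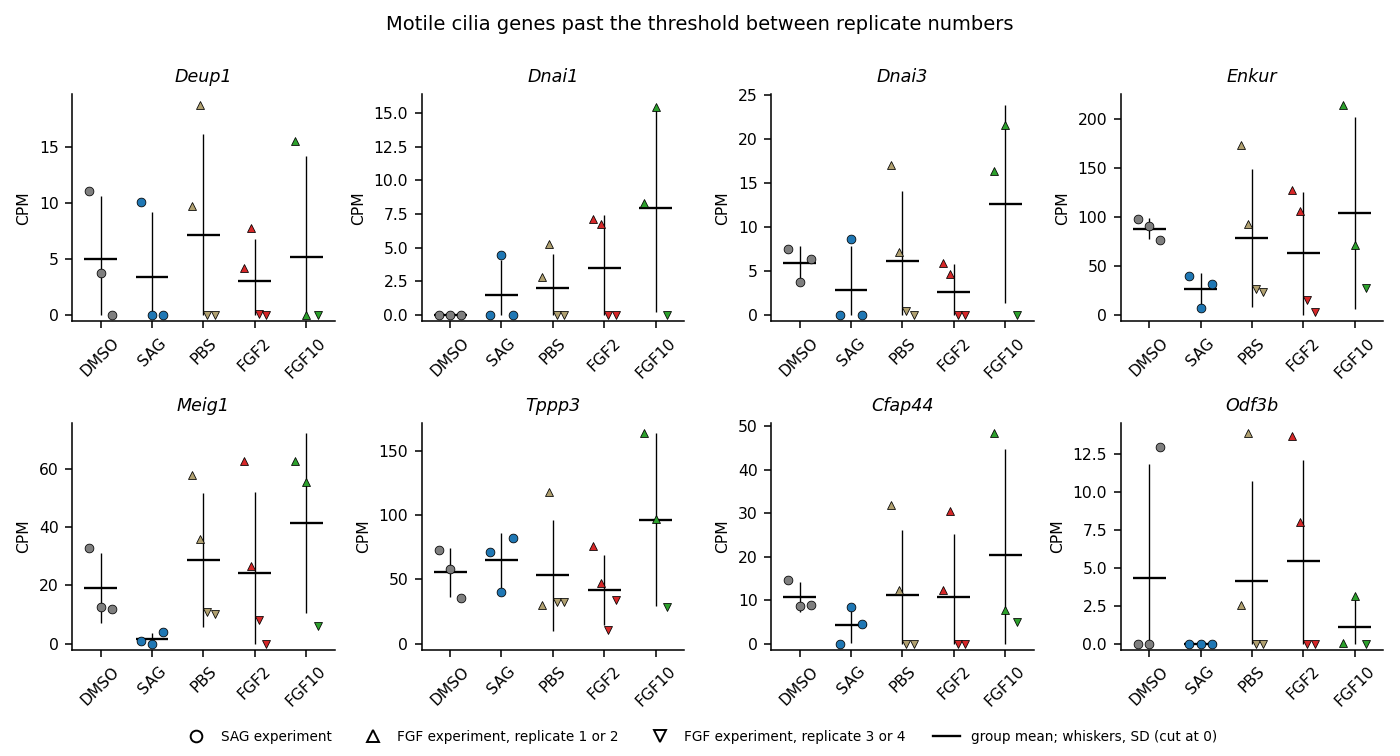
CPM (vertical axes, each from 0) in every library for the 8 genes of the lists with an adjusted p under 0.05 between replicate numbers, drawn as in the plot of levels by library. Downward triangles (replicates 3 and 4) sit at 27.1 CPM or less for *Enkur* and upward ones (replicates 1 and 2) at 71.1 CPM or more, while *Tppp3* and *Deup1* overlap.

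Under SAG, 57 of the 89 structural genes with a count had a lower mean and 25 a higher one. Of all 22606 genes with a count, 9939 (44.0%) had a lower mean and 8697 a higher one. Of 67 tested genes of the 8 lists, 0 were called by edgeR, 4 had an unadjusted p under 0.05, against 5.69% of all genes, and DESeq2 called 4, where it called 2.93% of all genes. *Enkur* was at 97.7, 90.1 and 76.1 CPM with DMSO and at 39.7, 7.40 and 31.2 CPM with SAG, without overlap, like *Dynlrb2*. With FGF2, 55 of the 89 structural genes had a lower mean than with PBS and 33 a higher one. Of all genes, 9781 (43.3%) were lower and 10340 higher. With FGF10, 39 had a lower mean and 49 a higher one, where 10089 of all genes (44.6%) were lower and 9341 higher. A larger share of the FGF10 libraries than of the PBS libraries are replicates 1 and 2. No gene of the 8 lists was called by edgeR or DESeq2 for either ligand against PBS. For FGF2 and FGF10, 0 of 78 and 1 of 87 tested list genes had an unadjusted p under 0.05 in edgeR. Of all genes, 1.75% and 2.29% had one.

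The counts differed from list to list. In replicates 3 and 4 dynein arms and docking had 20 of 21 genes with a lower mean, radial spokes and links 18 of 20, and other genes of multiciliated cells 17 of 18. Centriole amplification had 6 of 10 lower, the early regulators 4 of 9 and the other RFX factors 2 of 4. *Cetn2*, a centrin of every centriole and the most abundant gene of the centriole list, was at 116 to 159 CPM in replicates 1 and 2 and at 71.1 to 209 CPM in replicates 3 and 4, with overlap. Whether the lists differ from each other was not tested.

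**Figure D4:**
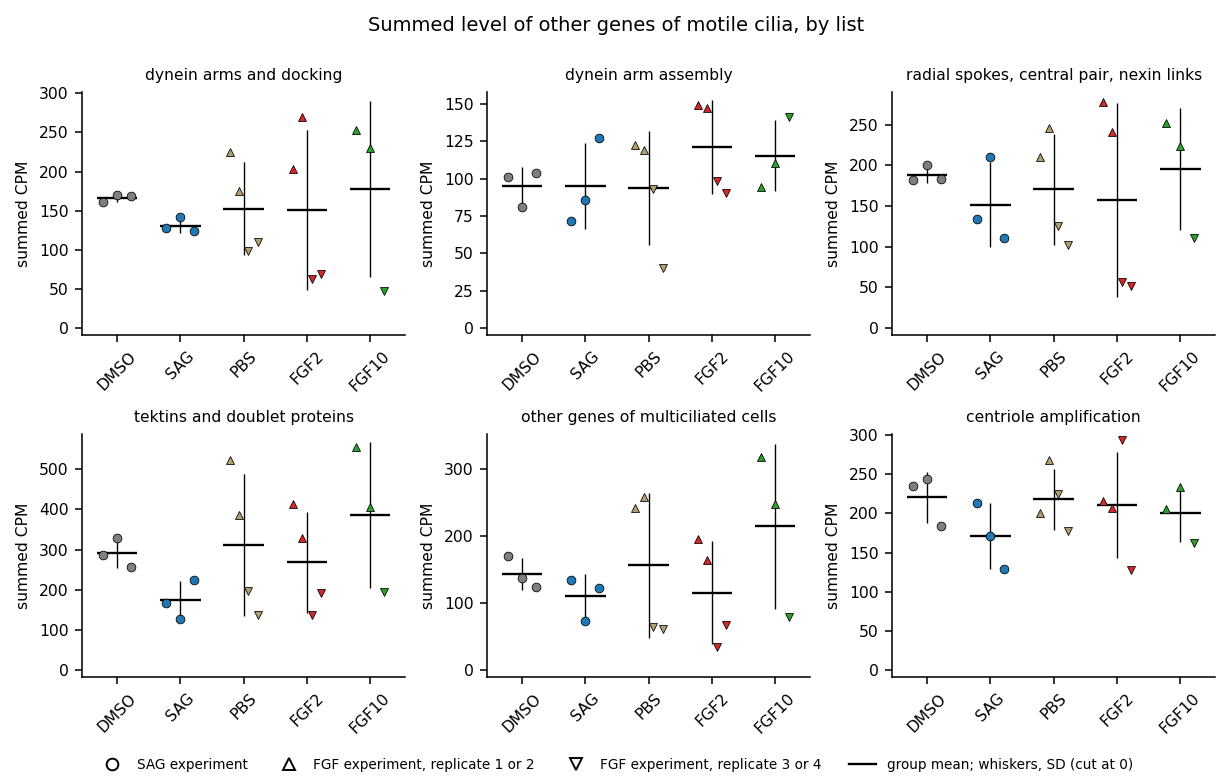
Summed CPM (vertical axes, each from 0) of 6 lists of genes of motile cilia in every library by group, with group means and SD, drawn as in the plot of levels by library. Dynein arms run from 176 to 270 CPM in replicates 1 and 2 of the FGF experiment and from 48.0 to 110 CPM in replicates 3 and 4, while centriole amplification overlaps, at 201 to 268 CPM and 128 to 294 CPM.

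Among themselves the genes varied together to different degrees. Over the 17 libraries Pearson's r of log2(CPM + 1) with *Foxj1* was 0.77 for *Dynlrb2*, 0.69 for *Ccdc153*, 0.63 for *Rfx2*, 0.62 for *Rfx3*, 0.54 for *Rsph1*, 0.32 for *Tekt1* and 0.00 for *Rfx4*. *Dynlrb2* and *Rsph1* had 0.80. *Rfx4* had r from −0.68 with *Tekt1* to 0.27 with *Rfx3*. These are descriptions, since the libraries fall into groups and replicate sets and share their scaling.

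The genes most like *Foxj1* over the 17 libraries were *Col9a2* (r = 0.94), *S100a6* (0.92) and *Cnn3* (0.92), none of which is in the cilium lists. *Dynlrb2* was most like *Kcne1l*, *Enkur* and *Nrxn3* (0.89 each), and *Ccdc153* most like *Teddm2* (0.88), *1110017D15Rik* (0.86) and *Abca1* (0.82). *Rsph1* had *Gpd1* and *Ppp1r1b* (0.90 each) among the genes most like it, and *Tekt1* was most like *Ager* (0.82), *Tmem163* (0.81) and *Ccdc13* (0.79). *Rfx3* had *Vit* and *Lpar4* (0.87 each) among the genes most like it. *Rfx2* was most like *Bmerb1* (0.82), *Csf2ra* (0.81) and *Scamp5* (0.79), and *Rfx4* most like *Gm49614* (0.84), *Zfp446* (0.81) and *Mdp1* (0.79).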

How the data were processed

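Per the labels and the methods of the study, RNA was made into QuantSeq 3ʹ libraries, reads were aligned and counted by the authors with STAR on GRCm38, and the deposited values are raw counts per gene. Whether counting used strand or molecular identifiers is not given in the sources used here. The count columns named for Shh were taken as the SAG libraries, by the titles and the design text. The methods give 3 FGF2 replicates and the labels 4, and all 4 were used. The 114 spike-in rows were left out.

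Genes and lists were chosen with earlier results of these data known. Counts were tested with edgeR 4.0.16 in R 4.3.3 (quasi-likelihood test, filterByExpr at its defaults, 10 counts and 15 in total, TMM, Benjamini-Hochberg over all genes tested, call at an adjusted p under 0.05), each comparison on its own libraries. The comparison of replicate numbers used 11 libraries with the treatment as a covariate. CPM values use TMM factors over 17 libraries. Standard errors of edgeR's fold-changes were derived from the test, as the absolute log2(fold-change) divided by the square root of its F statistic. For genes resting on libraries at 0 they are only approximate. Alternatives were DESeq2 1.42.0, its size factors in edgeR, other filters, all libraries in 1 fit, the replicate block, the replicate set as a term or within sets, a stricter threshold (adjusted p under 0.01 and absolute log2(fold-change) above 1) and each library left out. The code was tested on simulated data with less spread between libraries than here and with changes in abundant genes only. That checks the code and not its power for the genes described. The coefficient of variation between libraries fitted by edgeR over all genes was 106% to 117% in the 6 comparisons. Likeness is Pearson's r of log2(CPM + 1) among 15458 genes. The text names the 9 genes, list genes that were called (up to 10 a comparison), up to 3 of the most abundant of a list, fixed regulators and the 3 most alike genes, of which some are not reported here. *Acta2*, *Aqp4*, *Csf1r*, *Aif1*, *Ttr*, *Aqp1*, *Kcnj13*, *Kl*, *Clic6*, *Otx2*, *Folr1*, *Pdgfrb*, *Gfap*, *Nnat*, *Olig2* and *Sox10* were named from the marker lists after their values were seen. Promoters are from RefSeq, GRCm38.p6, and gene coordinates from GENCODE on GRCm38.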

Additional observations from a re-analysis of the deposited data

Results flagged for a closer look

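Of 18 sets of 4 libraries examined, 3 held a library far from the other libraries of its group. All were FGF2 libraries and genes near 0, where zeros are common. How often such a library is met at these levels was not tested. *Ccdc153* was at 5.17 CPM in FGF2 replicate 1 and at 0 in the other 3. *Tekt1* was at 7.02 CPM in FGF2 replicate 2, next to 0.831 CPM. *Tmem212* was at 5.48 CPM in FGF2 replicate 2, next to 0.129 CPM.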

How the results depend on the processing

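No setting reversed a result on all genes or on the lists. The count of all genes called between SAG and DMSO, 8 here, was 76 without a filter, 42 with a mean of at least 10 counts, 4 with all 17 libraries in 1 fit, 367 with DESeq2, 4 at the stricter threshold and 1 to 7 with 1 library left out. List genes called lower with SAG, 0 here, were 1 without a filter and 4 with DESeq2. DESeq2 called 9 genes for FGF2 against PBS, 37 for FGF10 against PBS and 28 for FGF2 against FGF10, where 2 were called without a filter and edgeR otherwise called 0. For PBS against DMSO, also 0, they were 36 without a filter, 4 with a mean of at least 10 counts, 1 with all libraries and 126 with DESeq2, which called 2 list genes higher. Between replicate numbers the 568 genes became 856 with a mean of at least 10 counts, 1576 with DESeq2 and 175 at the stricter threshold. The 8 list genes called lower there became 13 without a filter, 17 with a mean of at least 10 counts, 29 with DESeq2, 1 at the stricter threshold and 1 to 7 with 1 library left out. Within PBS or FGF2 alone, fits chosen after seeing the data with 2 libraries against 2, 11 and 24 genes and 0 and 0 list genes were called. Of 84 list genes tested in each, 10 and 23 had an unadjusted p under 0.05. Of these, 10 and 22 were lower, against 3.64% and 6.25% of all genes lower in this way. The causes were not tested.

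Deviations of same-numbered libraries had correlations of −0.016 to 0.12, above 0 for each pair within the FGF experiment but not over 0.1 for every pair of any comparison, so the numbers were not used to pair libraries. With the replicate block, the counts were 12 for SAG against DMSO and 0 for the other 4 comparisons of groups, with 0 list genes in each. Of the 8 genes, 2, 2 and 1 then had an unadjusted p under 0.05 for SAG against DMSO, FGF2 against PBS and PBS against DMSO, against 5.01%, 3.01% and 3.14% of all genes, where 3, 0 and 0 had one without it. The fitted values of *Ccdc153*, *Rsph1* and *Tekt1* moved most, since they rest on libraries at 0. Depth, the zeros at low levels and 2 to 4 libraries a group limit every value below about 20 CPM.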
